A study of Mus musculus with 3 samples.

Results

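Osteoblasts and osteocytes are the cells that build bone and live inside it, and they were read here from single-cell RNA sequencing of the mouse cochlea, which is encased in a capsule of bone. A barcode was taken as such a cell when it held at least 500 UMIs (unique molecular identifiers, which count RNA molecules), at least 200 genes and at most 20% of UMIs from mitochondrial genes, had no UMI of the leukocyte gene Ptprc, had at least 20 UMIs of the osteocalcin genes Bglap and Bglap2 per 10000 UMIs, and had at least 2 UMIs of Ibsp, Dmp1 and Phex together. These conditions chose 197 of the 37188 barcodes that met the limits on UMIs, genes and mitochondrial share. The levels of Ptprc, Bglap, Bglap2, Ibsp, Dmp1 and Phex therefore only describe the choice.

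The study compared C57BL/6J mice exposed to noise with mice that were not, and each group gave 1 library from 6 mice, prepared with the 10x Genomics 3′ kit from the cochlea. The group labelled NIHL (noise-induced hearing loss) had 115 dB for 4 h on 3 days, the group labelled HHL (hidden hearing loss) had 110 dB for 2 h, and the control group had no noise. Cochleae of exposed mice were collected 6 h after the noise ended, and the labels name no transgene or deletion. No source used here states the age of the mice. The deposited matrix pools the libraries and marks each barcode with a suffix, 1, 2 or 3, which no label ties to a group. The libraries are therefore called library 1, library 2 and library 3, no value stands for a noise group or for the control, and with 1 pooled library per group no test between groups was possible.

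Osteoblasts lay down a matrix of type I collagen and then mineralize it with the help of phosphatases, phosphate transporters and small acidic proteins. Some of them become buried in the matrix as osteocytes, which signal through sclerostin, FGF23, RANKL and osteoprotegerin to control formation, phosphate and resorption. The bone of the otic capsule is known for very little remodelling, and osteoprotegerin made in the inner ear is known to restrain osteoclasts there. The transcription factor Runx2 acts at the top of the osteoblast programme and binds short core motifs in bone gene promoters, among them the osteocalcin promoter.

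Promoter windows of 4 bone genes are shown: Bglap, Ibsp and Dmp1, which are among the genes that chose the cells, and Spp1, by which the cells are later divided. Each window is the 250 bases before the gene's start, read from RefSeq on build GRCm38.p6, which is not the build of the counts. Capitals mark every match to the Runx core TGTGGT or to TATAAA on either strand, and the reverse complements are ACCACA and TTTATA. Of 32851 RefSeq promoter windows of this length, 14.0% held the Runx core and 12.4% held TATAAA. The Bglap window was chr3:88384467-88384716 on the minus strand, with the Runx core beginning 132 bases and TATAAA 27 bases before the start. Ibsp, Dmp1 and Spp1 lie close together on chromosome 5, all on the plus strand. The Ibsp window was chr5:104299037-104299286 and held TTTATA 28 bases before the start and no Runx core. The Dmp1 window was chr5:104202367-104202616, the later of 2 entries, and held the Runx core 164 bases before the start. The Spp1 window was chr5:104434861-104435110, the earlier of 2 entries, and held the Runx core 128 bases and TATAAA 211 bases before the start. The windows of the other Dmp1 entry, of the other Spp1 entry and of Phex, which also chose the cells, held neither motif. The windows of the 3 Bglap3 entries, of Col1a2 and of Col11a1 were also read and held neither motif. The window of Col11a2 held TATAAA and no Runx core. None of these windows is shown, so the share of shown windows with a match is not to be set against the share over all windows. A match is a description of letters and not of a bound site. The sequences read 5′ to 3′ on the gene's strand are as follows.
Bglap: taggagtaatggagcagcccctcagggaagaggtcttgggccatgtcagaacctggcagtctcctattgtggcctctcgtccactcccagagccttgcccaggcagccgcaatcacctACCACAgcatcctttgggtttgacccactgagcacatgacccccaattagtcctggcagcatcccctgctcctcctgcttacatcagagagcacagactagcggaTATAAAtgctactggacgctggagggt
Ibsp: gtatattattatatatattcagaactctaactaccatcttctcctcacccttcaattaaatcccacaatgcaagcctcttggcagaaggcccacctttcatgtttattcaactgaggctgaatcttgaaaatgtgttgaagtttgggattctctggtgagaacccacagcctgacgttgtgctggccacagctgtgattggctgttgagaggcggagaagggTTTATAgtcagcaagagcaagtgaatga
Dmp1: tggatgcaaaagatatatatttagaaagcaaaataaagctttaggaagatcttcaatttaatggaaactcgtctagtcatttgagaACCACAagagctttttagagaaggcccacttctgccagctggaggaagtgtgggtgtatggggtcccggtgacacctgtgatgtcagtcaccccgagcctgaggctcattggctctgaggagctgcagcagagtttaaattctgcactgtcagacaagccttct
Spp1: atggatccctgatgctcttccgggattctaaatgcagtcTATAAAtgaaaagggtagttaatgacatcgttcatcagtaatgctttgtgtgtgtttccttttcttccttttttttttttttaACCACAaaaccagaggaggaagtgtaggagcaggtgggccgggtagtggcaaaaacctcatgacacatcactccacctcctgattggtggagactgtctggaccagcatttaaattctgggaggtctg

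Osteoblast markers that the choice had not used were high in the chosen cells, while osteocyte markers did not set them apart from other stromal cells. Of 15 osteoblast markers outside the rule, 14 were higher in the chosen cells than in all other kept cells within every library. The exception, the phosphatase gene Phospho1, had 0 UMIs. Bglap3, among the 14, is a near copy of Bglap and Bglap2, which chose the cells. It is therefore not independent of the choice, here or in the comparisons below, and gave 539, 1962 and 747 CPM of the sums that follow. Summed over the list, the level was 56391 CPM (the UMIs of a gene in a set of cells, scaled by all UMIs of that set in the library) in the chosen cells of library 1, 69917 in library 2 and 53783 in library 3, against 600 in the other kept cells of library 1, 913 in library 2 and 678 in library 3. The same list was at 25866, 13423 and 31230 CPM in fibroblasts of libraries 1, 2 and 3, which were chosen by Col3a1 and Lum, and 14 of the 15 markers were higher in the chosen cells than there in every library. It was at 10113, 10417 and 12856 in the adipogenic stroma, chosen by Cxcl12, Lepr and Adipoq, and at 7696, 9070 and 5796 in fibrocytes, chosen by Coch and Otor, with 13 of 15 markers higher in the chosen cells than in either set. The osteocyte part of the label rested on fewer counts. Of 10 osteocyte markers outside the rule, 5 were higher than in the other kept cells of every library, and the summed level was 323, 227 and 290 CPM in the chosen cells of libraries 1, 2 and 3, against 23.8, 43.9 and 34.3 in the other kept cells. In fibrocytes this list was at 528, 527 and 833 CPM, above the chosen cells of every library, and only 3 of the 10 markers were higher in the chosen cells than in fibrocytes of every library. In fibroblasts it was at 213, 264 and 203 and in the adipogenic stroma at 233, 264 and 140, and both sets were above the chosen cells in library 2. The summed list thus did not separate the chosen cells from other stroma, although the phosphate hormone gene Fgf23 had no UMI in any of these 3 sets and the Wnt inhibitor gene Dkk1 was at 0 in 2 of them and at most 0.50 CPM in fibrocytes. Sost, which encodes sclerostin and is the classical marker of mature osteocytes, had 2 UMIs in 1 cell of library 1 and none elsewhere. A count of 0 allowed up to 2.71 CPM in library 2 and 8.52 in library 3, where the limit is 3 counts.

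Library 1 held 85 of the cells, library 2 held 75 and library 3 held 37. They were 0.503% of the kept barcodes of library 1, with an exact Clopper-Pearson 95% interval of 0.402% to 0.622%. The share was 0.781% in library 2, with an interval of 0.615% to 0.978%, and 0.346% in library 3, with an interval of 0.244% to 0.476%. The order of the libraries differed when the base was the kept barcodes without a Ptprc UMI. On that base the shares were 3.83% (3.07% to 4.71%) in library 1, 2.64% (2.08% to 3.29%) in library 2 and 1.16% (0.821% to 1.60%) in library 3. Library 3 had the lowest share on both bases, and intervals here and below cover counting error only, not differences between mice or dissociations.

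Few barcodes lay at the edges of the conditions. Cells inside the osteocalcin limit with between 20 and 25 UMIs per 10000 numbered 4, and 4 barcodes with 15 to under 20 were just outside. The cells with exactly 2 UMIs of Ibsp, Dmp1 and Phex numbered 2, and 3 further barcodes had 1 UMI and 12 had 0. The condition on these genes alone was met more widely. Below the osteocalcin limit, 1148 barcodes without Ptprc held at least 2 of their UMIs, with a median of 0 osteocalcin UMIs per 10000. A further 63 barcodes met every other condition but carried a Ptprc UMI, 38 of them in library 1, 17 in library 2 and 8 in library 3, with a median depth of 14796 UMIs. The median of the chosen cells was 660 osteocalcin UMIs per 10000 in library 1, 1068 in library 2 and 550 in library 3.

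Depth and RNA of other cells differed between the libraries. The chosen cells summed to 689820 UMIs in library 1, 1107793 in library 2 and 352227 in library 3, with medians per cell of 5773, 13301 and 6886, and mitochondrial genes made up a median of 5.95%, 4.13% and 4.03%. Globin and other erythroid genes summed to 100 CPM in the chosen cells of library 1, 4734 in library 2 and 1241 in library 3, against 2150, 66694 and 36971 in the other kept cells of those libraries. Neutrophil granule genes summed to 3399, 2936 and 3725 CPM, against 153432, 87672 and 75706 in the other kept cells. The neutrophil gene S100a8 was counted in 84 of 85, 74 of 75 and 37 of 37 chosen cells, so a low level of a blood gene was not read as expression by bone cells. The endothelial genes Cdh5 and Cldn5, the mural gene Rgs5 and the Schwann cell genes Sox10 and Pllp had no UMI, and the summed endothelial list was at 52.2, 50.6 and 90.9 CPM, against 111, 142 and 177 in the other kept cells. The summed list of 8 Schwann cell markers was at 129, 74 and 73.8 CPM, against 254, 217 and 203, with 1 marker higher in the chosen cells of every library. The mural list was higher in the chosen cells, at 464, 351 and 539 against 66.9, 122 and 94 in the other kept cells, with 5 of its 9 markers higher in every library, and it was at 804, 964 and 426 in fibroblasts. Of 128 kept barcodes that occurred in more than 1 library, 1 was the barcode of a chosen cell, and none was chosen in 2 libraries. The gene Gm42418 took 1.62%, 0.285% and 1.11% of the UMIs of the chosen cells in libraries 1, 2 and 3. Its part in the library differences below was not tested.

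Type I collagen was found in nearly every cell and was lowest in library 3. Col1a1, which encodes a chain of type I collagen, the main protein of bone, was at 16593 CPM (exact Poisson 95% interval 16290 to 16900) in library 1, 24784 (24492 to 25079) in library 2 and 12728 (12358 to 13106) in library 3. In fibroblasts of the same libraries it was at 7719, 2512 and 9214. Col1a2, the other chain, was at 17619, 21064 and 13443 in the bone cells. Library 3 was the lowest for both chains, and the intervals of the libraries did not overlap. Sparc, osteonectin, was at 13286, 14315 and 15192, and the small proteoglycans Dcn (1989, 2064 and 2109) and Lum (1666, 1965 and 1888) were close to level across the libraries. The proteoglycan gene Bgn was at 1644, 1447 and 1471. Ifitm5, an osteoblast membrane protein mutated in a form of brittle bone disease, was at 1044, 1098 and 653 in the bone cells, against 7.48, 2.08 and 0 in the fibroblasts.

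Bglap3, a near copy of osteocalcin, was at 539 CPM in library 1, 1962 in library 2 and 747 in library 3. A library ratio is given here as the log2 of a library's level over the geometric mean of the 2 others, and for Bglap3 in library 2 it was 1.63. The transcripts of Bglap and Bglap2 are 98.6% identical over 440 aligned bases, those of Bglap and Bglap3 96.1%, so the division of reads among these copies is uncertain. Bglap itself was at 40053, 67219 and 45973. Over single cells the levels of Bglap and Bglap2 had a Spearman rho of 0.91, 0.96 and 0.92 over the 85, 75 and 37 cells of the libraries, as a description of cells that share a library.

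**Figure D1:**
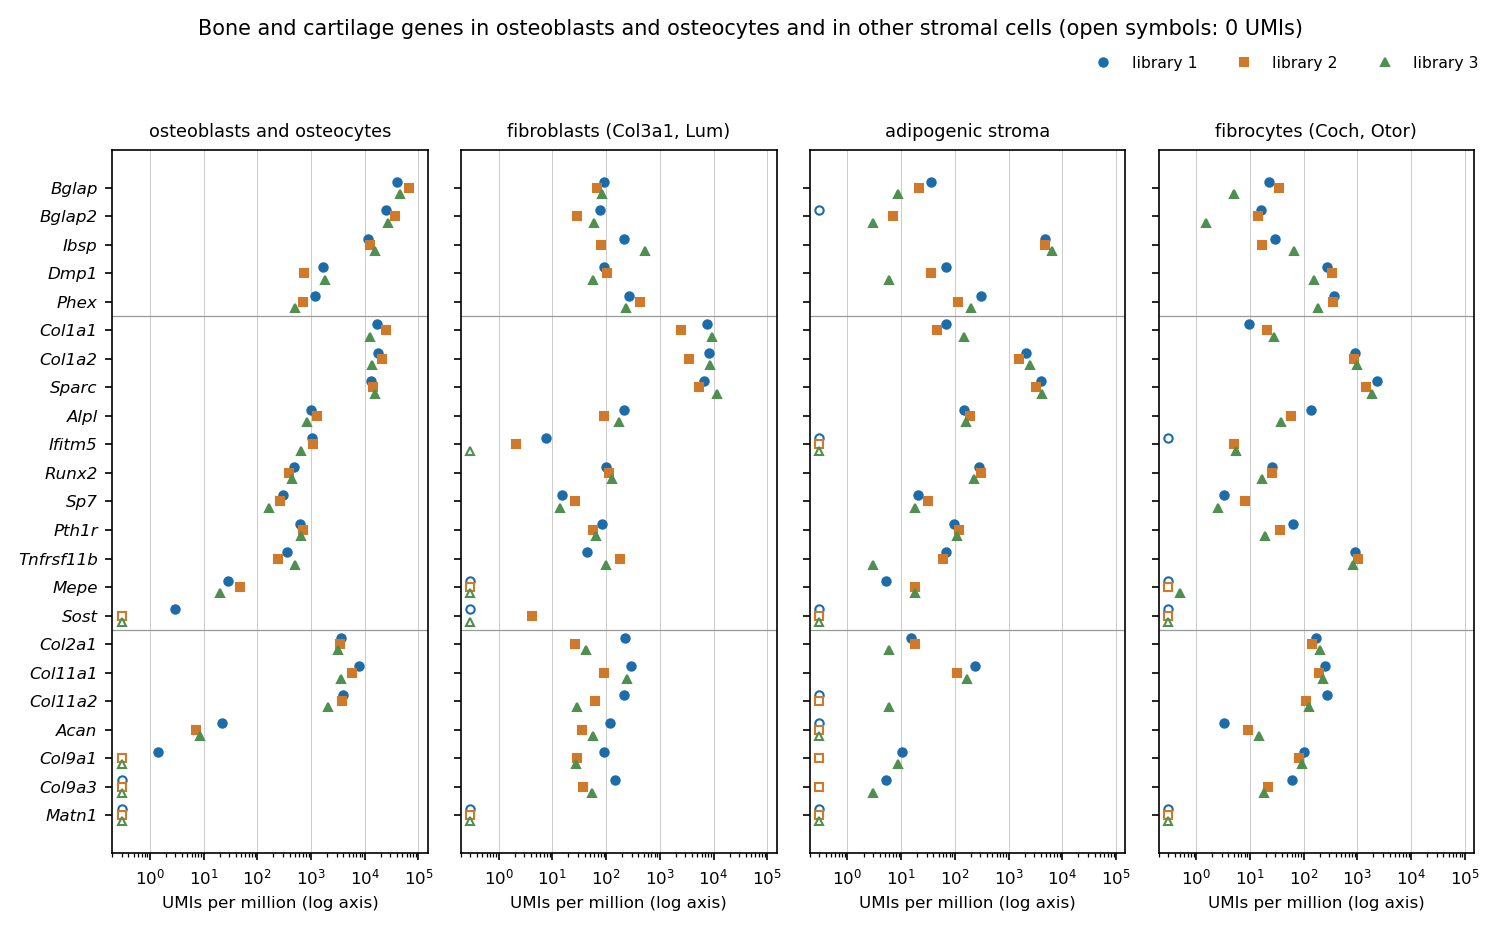
Levels of bone and cartilage genes in CPM (log axis), for osteoblasts and osteocytes and for 3 other stromal sets, with 1 symbol per library and open symbols for 0 UMIs. The genes that chose the bone cells stand above the upper line, other bone genes between the lines and cartilage genes below; Col2a1 is at 3671, 3462 and 3222 in the bone cells while Matn1 is at 0 in all 3 libraries.

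Genes of mineral formation were present with the exception of Phospho1. Alpl, the tissue-nonspecific alkaline phosphatase that frees phosphate from pyrophosphate, was at 1006 CPM (933 to 1084) in library 1, 1273 (1207 to 1341) in library 2 and 838 (745 to 939) in library 3. Smpd3, a sphingomyelinase needed for mineralization, was at 1602, 1452 and 1300, and Tmem119, a membrane protein that promotes osteoblast differentiation, at 390, 529 and 287. Car3, a carbonic anhydrase, was at 2643, 3013 and 1579 in the bone cells, against 93.5, 66.5 and 0 in fibroblasts. The genes that raise or move pyrophosphate, an inhibitor of mineral, stood out from these by their order of libraries. Enpp1, which makes pyrophosphate, was at 103 (80.4 to 130), 36.1 (25.8 to 49.2) and 145 (108 to 190), and Ank, its exporter, at 238 (203 to 277), 100.2 (82.4 to 121) and 378 (316 to 448). Both were lowest in library 2, outside the intervals of the others. Slc13a5, a citrate transporter, was at 43.5 and 70.4 in libraries 1 and 2 but had 3 UMIs, all in 1 cell, in library 3. Car2, a carbonic anhydrase that red cells also hold, was at 4.35, 95.7 and 36.9, the order of the globin genes.

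Across the 22 mineralization genes in the table, 16 passed the minimum of 50 UMIs summed over the chosen cells. Among them the library 3 ratio to the other libraries was at least 2-fold higher for 2 genes, Ank and Enpp1, and at least 2-fold lower for 1, Slc13a5. Over all 5518 genes that passed the minimum, 2.83% were at least 2-fold higher and 4.66% at least 2-fold lower in library 3. In library 2 the list had 2 genes higher, Car2 and Slc13a5, and 3 lower, Enpp1, Ank and Dmp1, beside 1.74% and 2.79% of all genes. In library 1 it had 1 higher, Phex, and 1 lower, Car2, beside 1.94% and 1.79%. The medians of the list were 0.30, −0.03 and −0.44 on the log2 scale in libraries 1, 2 and 3, beside 0.07, −0.05 and −0.00 for all genes. Dmp1 and Phex chose the cells, so their place in these counts is a description. The library 1 ratio of Phex fell below 2-fold in many alternatives. It was at 0.94 among cells with at least 2 Dmp1 and Phex UMIs, 0.98 with TMM scaling and 0.99 without the top cell of each library.

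Most transcription factors of the osteoblast had a library ratio within 2-fold in every library. Runx2 was at 481 CPM (431 to 536) in library 1, 394 (357 to 432) in library 2 and 434 (368 to 509) in library 3, against 101, 114 and 128 in fibroblasts. Sp7, osterix, which acts after Runx2, was at 300.1 (261 to 344), 260 (231 to 292) and 168 (128 to 216), against 15, 27 and 13.8 in fibroblasts. Mef2c, a factor that acts on the Sost enhancer, was at 1400, 1279 and 914. Of 17 factors that passed the minimum, none was 2-fold higher in any library, beside 1.94%, 1.74% and 2.83% of all genes in libraries 1, 2 and 3. In library 2, 1 was 2-fold lower and in library 3 also 1, beside 2.79% and 4.66%. These counts are near the shares over all genes and do not set the factors apart. Dlx3, a homeobox factor of bone and tooth, was lower in library 3 with 39.7 CPM (21.7 to 66.7) from 14 UMIs, against 103 and 88.5 in libraries 1 and 2. Dlx6 was lower in library 2, at 36.2, 16.2 and 45.4, and Dlx5, at 107, 110.1 and 150.5, was within 2-fold throughout. Msx2 had no UMI.

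Osteocyte genes were present at low counts. Mepe, a matrix phosphoglycoprotein of late osteoblasts and osteocytes, was at 29 CPM (17.7 to 44.8) in library 1, 47.8 (35.8 to 62.6) in library 2 and 19.9 (7.99 to 41) in library 3, seen in 11, 14 and 3 cells. Fgf23, the phosphate hormone, was at 30.4 in library 1, from 9 cells, 2.71 in library 2, from 2 cells, and 22.7 in library 3, from 4 cells. With 32 UMIs in all it did not reach the minimum for a library ratio. Irx5, a homeobox factor, was at 194, 93 and 176, lowest in library 2. Dkk1, a Wnt inhibitor, had 31 UMIs over the 197 cells. Of the 24 genes of the osteocyte list in the table, 13 passed the minimum, and 2 of them, Wnt5a and Sfrp4, were 2-fold higher in library 3, beside 2.83% of all genes. Wnt5a fell below 2-fold in 4 alternatives, the lowest value being 0.66 among cells with at least 2 Dmp1 and Phex UMIs.

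Among signals to osteoclasts, the inhibitor was well counted and the activator was not. Tnfrsf11b, osteoprotegerin, the decoy receptor that blocks RANKL, was at 357 CPM (313 to 404) in library 1, 246 (218 to 277) in library 2 and 499.7 (429 to 579) in library 3, and had a UMI in 56, 51 and 24 cells. Tnfsf11, RANKL itself, had 1, 1 and 6 UMIs in the same cells. In all, 695 UMIs of osteoprotegerin and 8 of RANKL were counted, which are counts not corrected for length. In fibrocytes Tnfrsf11b was at 904, 1038 and 833, above the bone cells of every library. Csf1, the osteoclast growth factor, was at 42, 26.2 and 31.2, against 279, 307 and 405 in the adipogenic stroma. Mmp13, a collagenase, had 5, 0 and 30 UMIs, the 30 in 5 cells of library 3. Of 11 osteoclast markers, Atp6v0d2, Calcr, Dcstamp and Ocstamp had no UMI, and the summed list was at 141, 279 and 185 CPM, against 736, 1610 and 1111 in the other kept cells.

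Receptors for bone hormones and growth factors were mostly level. Pth1r, the receptor for parathyroid hormone, was at 623 CPM (566 to 685) in library 1, 706 (657 to 757) in library 2 and 650.1 (569 to 740) in library 3, and its intervals overlapped between all libraries. In fibroblasts it was at 82.3, 56.1 and 66.1. Fgfr1 was at 678, 625 and 764, Fgfr2 at 393, 389 and 358 and Pdgfra at 364, 415 and 344, all within 2-fold. Vdr, the vitamin D receptor, differed more, with 322 (281 to 367), 122 (102 to 144) and 247 (198 to 305), lowest in library 2 beyond counting error. Of 21 receptor and growth factor genes that passed the minimum, 2 were 2-fold higher in library 3, Igf2 and Igfbp7, beside 2.83% of all genes. A single cell held 15 of the 22 Igf2 UMIs of library 3, and without the top cell of each library the ratio was 0.05.

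Among BMP genes, Bmp3, an inhibitor of bone density that osteoblasts secrete, was level across libraries, at 426 CPM (379 to 478), 411 (374 to 450.3) and 432 (366 to 506). In fibroblasts it was at 0, 4.16 and 0. Bmp8a was at 109 (85.5 to 136), 37 (26.6 to 50.2) and 179 (137 to 229), so library 2 was lowest and library 3 highest. Of 17 BMP and TGF-beta genes that passed, Bmp8a and Fst were 2-fold higher in library 3 beside 2.83% of all genes, and Bmp8a and Smad7 lower in library 2, beside 2.79%. Smad7 was at −0.86 with the mean over cells. Fst, follistatin, had 30 of its 38 library 3 UMIs in 1 cell, and without the top cell of each library its ratio was −0.16.

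The Wnt list had medians of −0.33, −0.15 and 0.92 in libraries 1, 2 and 3, on few genes. Of 34 genes of the list, 10 passed the minimum, and 5 of them were 2-fold higher in library 3, beside 2.83% of all genes: Wnt5a, Wnt4, Sfrp2, Sfrp4 and Wif1. Wnt5a, a noncanonical ligand, was at 46.4, 57.8 and 108 CPM, and it was close to the limit, falling below it in the 4 alternatives counted above. Wif1, a secreted inhibitor, was at 97.1, 46.9 and 139. Sfrp2, also an inhibitor, had 29 of 31 UMIs of library 3 and 118 of 182 UMIs of library 2 in 1 cell each. Wnt4 had 17 of 34 UMIs of library 3 in 1 cell. Within the cells that held at least 2 UMIs of Dmp1 and Phex the list median of library 3 was 0.24. The receptors and co-receptors Lgr4 (101, 93.9 and 93.7) and Lrp6 (98.6, 78.5 and 88) were level.

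**Figure D2:**
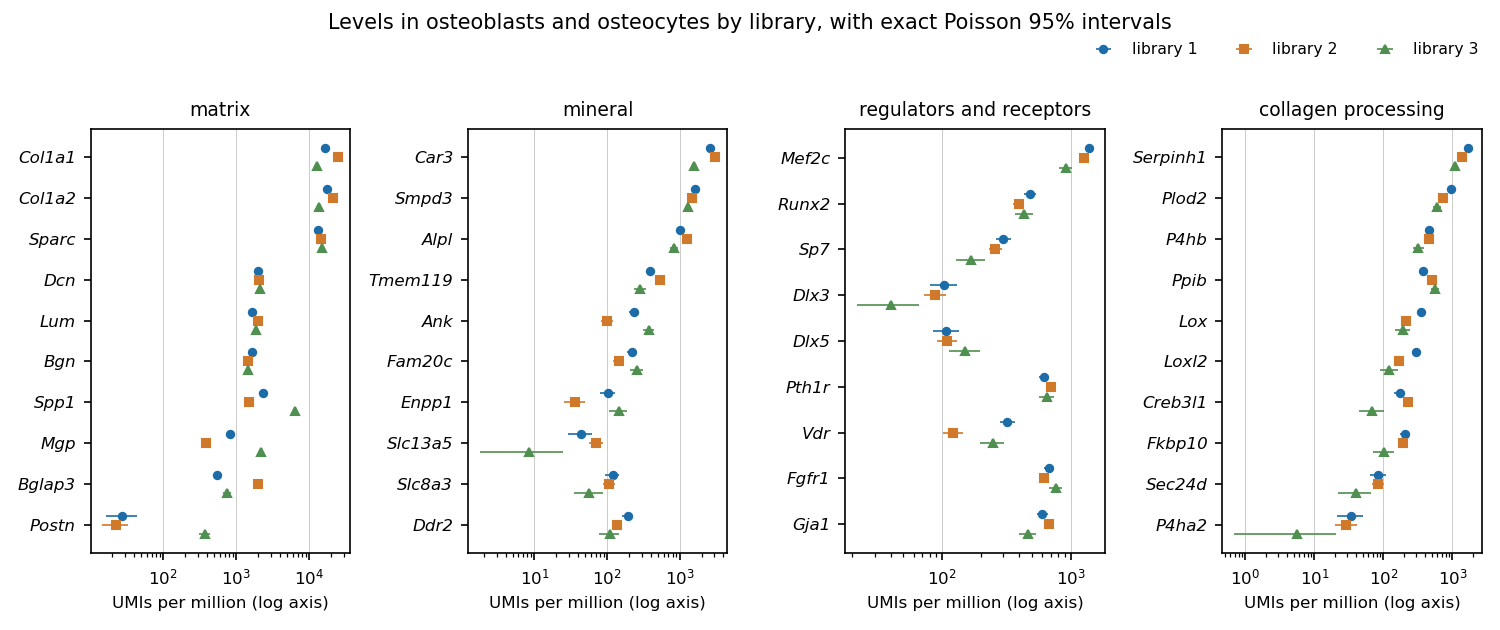
Levels in CPM (log axis) of matrix, mineral, regulator and receptor, and collagen-processing genes in the osteoblasts and osteocytes of each library, with exact Poisson 95% intervals that cover counting error. Pth1r lies between 623 and 706 in all libraries, whereas Spp1 is at 6317 in library 3, above 2344 in library 1 and 1493 in library 2.

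Several genes that fold, modify and export collagen were lower in library 3. Of 30 genes of the list, 25 passed the minimum, and none was 2-fold higher in library 3 while 5 were lower, beside 4.66% of all genes: Creb3l1, P4ha2, Fkbp14, Sec24d and Loxl3. Sec24d and Loxl3 fell below 2-fold in 2 alternatives each, at −0.75 and −0.88 with the mean over cells. The medians of the list were 0.42, 0.04 and −0.49 in libraries 1, 2 and 3. Creb3l1, a membrane-bound factor that turns on collagen secretion in osteoblasts, was at 171 CPM (142 to 205) in library 1, 224 (197 to 254) in library 2 and 68.1 (43.7 to 101) in library 3. Sec24d, a coat protein that carries procollagen out of the endoplasmic reticulum, was at 84.1, 84 and 39.7, and Fkbp14, a collagen chaperone, at 44.9, 46.9 and 19.9. P4ha2, a prolyl hydroxylase subunit, had 23, 32 and 2 UMIs. Serpinh1, the collagen chaperone HSP47, at 1708, 1396 and 1076, and Plod2, the lysyl hydroxylase of collagen ends, at 941, 731 and 593, were within 2-fold. Loxl2, which cross-links collagen, was 2-fold higher in library 1, at 300.1, 171 and 122. Its ratio was at 0.98 with a mitochondrial maximum of 10% and at 0.97 among cells with at least 2 Dmp1 and Phex UMIs.

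Genes mutated in brittle bone disease overlap this list, and their medians were 0.30, 0.21 and −0.52, with 2 of 17 lower in library 3, Creb3l1 and Sec24d, beside 4.66% of all genes. In the fibroblasts, which also make type I collagen, the medians of the collagen-processing list were −0.01, −0.16 and 0.16. In the adipogenic stroma they were 0.29, −0.07 and −0.32, and in the fibrocytes 0.38, −0.25 and −0.18. Whether the bone cells differ from these sets was not tested, since each has 1 value per library.

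The bone cells carried collagens usually named for cartilage, while most other cartilage genes were at or near 0. Col2a1, the type II collagen gene, was at 3671 CPM (3529 to 3816) in library 1, 3462 (3353 to 3573) in library 2 and 3222 (3038 to 3415) in library 3. In fibroblasts it was at 228, 27 and 43 and in fibrocytes at 168, 141 and 202. A UMI of Col2a1 was found in 79 of 85, 70 of 75 and 31 of 37 bone cells. With each cell thinned to 1000 UMIs, which left out 3 cells of library 1 and 2 of library 2, the shares were 85.4%, 84.9% and 64.9% and the unthinned ones 92.9%, 93.3% and 83.8%. A sample of 1563, 676 and 761 blood cells with a Ptprc UMI, thinned likewise, had a Col2a1 UMI in 0.256%, 0.296% and 0.263% of cells, while all such cells had a median unthinned depth of 5798, 6196.5 and 10014 UMIs. The share in bone cells was thus above that in blood cells of every library.

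Col11a1 was at 7837, 5678 and 3623 CPM and Col11a2 at 3942, 3731 and 2112, so both type XI collagen chains were lowest in library 3. Aggrecan, Acan, the main proteoglycan of cartilage, was at 21.7, 7.22 and 8.52, and in fibroblasts at 116, 35.3 and 58.4. Col9a1 had 1 UMI in all, and Col9a3, Matn1, Matn3, Col10a1, Cnmd and Snorc had none. Sox9, the master factor of cartilage, had 17 UMIs in 15 cells and was at 5.80, 4.51 and 22.7, against 142, 137 and 78.4 in fibroblasts. Of 12 chondrocyte markers 6 had no UMI, and Col2a1 made up nearly all of the summed list of 3705, 3474 and 3251 CPM.

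The 17 cells with no Col2a1 UMI were shallower, with a median of 2773 UMIs against 8864 in the 171 cells with at least 2. They also held less osteocalcin in each library, a gene that chose the cells. Bglap was at 40483, 68656 and 49835.5 in the cells of libraries 1, 2 and 3 with Col2a1, against 15585, 4757 and 9659 in those without. Col11a1 was at 8046, 5805 and 3930 with Col2a1, against 2535, 242 and 1156 without. Over both sets, 5460 genes had at least 50 UMIs. Of them, 23, Col2a1 included, were at least 2-fold higher in the cells with Col2a1 in every library, which is 0.421%. Lower in every library were 90, which is 1.65%, beside this difference in depth. The minimum of 50 UMIs could be met through the cells with Col2a1 alone, and counts in the others were few. Among the 90, Shank1 had 5 UMIs in the cells without Col2a1 and Polg 6. The balance of 23 and 90 is therefore not read as a result.

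Beyond the bone genes, the ranking of the bone cells against all other kept cells, taken as the lowest ratio of the 3 libraries and with the genes of the rule left out, put the following genes first: Dlx3, BC055402, Bmp3, Ppef1, Panx3, Col22a1, Prss35, Col11a1, 9130024F11Rik and Bglap3. Further genes among the first 20 were Thbs4, Col2a1, Col1a1, Fat3, Lipc, Insc, Sp7, Col5a2 and Smpd3. Panx3, a pannexin channel of bone and cartilage cells, was at 78.3, 75.8 and 56.8 CPM, against 3.74, 2.08 and 3.07 in fibroblasts. Col22a1, a collagen of tissue junctions, was at 742, 701 and 451, against 3.74, 2.08 and 1.54. Prss35, a secreted protein of the serine protease family, was at 1534, 1758 and 1178, and Lipc, hepatic lipase, at 133, 153 and 131. These genes were ranked on the cells that were chosen, so the ranks are a description. Bglap3 is also a near copy of Bglap and Bglap2, which are genes of the rule.

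Genes known from the inner ear were found in the same cells. Pou3f4, a factor of the otic mesenchyme that is mutated in X-linked deafness, was at 139 CPM (113 to 170), 171 (147 to 197) and 193 (149.9 to 245). It had a UMI in 45, 50 and 25 cells, and in fibrocytes it was at 288, 332 and 422. Tbx2, a T-box factor, was at 171, 153 and 136, against 11.2, 8.31 and 4.61 in fibroblasts, 10.3, 25 and 5.95 in adipogenic stroma and 0, 7.07 and 0 in fibrocytes. Coch, the fibrocyte protein cochlin, was at 170, 148 and 579, but 1 cell held 47 of 117, 130 of 164 and 96 of 204 of its UMIs in libraries 1, 2 and 3. Among connexins the bone cells carried Gja1, connexin 43, at 602, 680 and 463. The fibrocyte and epithelial connexins Gjb2 and Gjb6 had 3 and 5 UMIs in all.

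**Figure D3:**
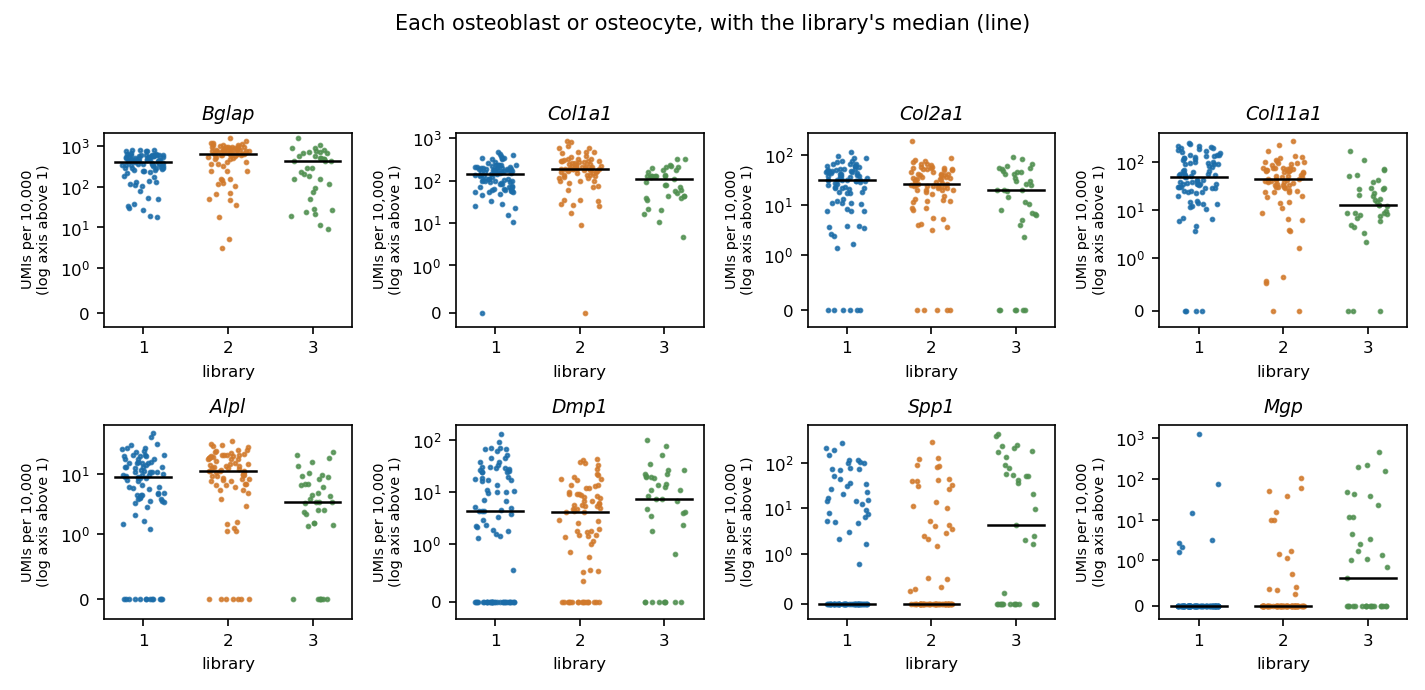
Levels of 8 genes in each of the 85, 75 and 37 osteoblasts and osteocytes of libraries 1, 2 and 3, as UMIs per 10000 on an axis that is logarithmic above 1 and linear below, with a line at each library's median. Col1a1 is seen in nearly every cell, whereas the Spp1 median is 0 in libraries 1 and 2 and 4.32 in library 3.

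The bone cells were not alike. They can be divided by Spp1, osteopontin, an acidic phosphoprotein that binds mineral and inhibits its growth. It had at least 10 UMIs per 10000 in 26 of 85, 15 of 75 and 17 of 37 cells of libraries 1, 2 and 3. It had no UMI in 48, 46 and 14 cells, and 31 cells lay between. Of all 197 cells, 5 were within 25% of the limit. The high cells had a median of 6134.5, 14444 and 6721 UMIs in libraries 1, 2 and 3, against 4918, 10328.5 and 7079.5 in the cells without Spp1, so they were deeper in libraries 1 and 2. The part of depth in the differences below was not tested. This limit and those for Dmp1 and Mgp below were chosen after the values were seen.

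Cells high in Spp1 differed from cells without it at few genes. Of 4552 genes with at least 50 UMIs over both sets, 33, Spp1 included, were at least 2-fold higher in the high cells of every library, which is 0.725%, and 6 were lower, which is 0.132%. Enpp1, the pyrophosphate-making enzyme, was at 219, 141 and 318 CPM in the high cells of libraries 1, 2 and 3, against 22.4, 6.75 and 17.7 in the cells without Spp1. Sema7a, a membrane-anchored semaphorin, was at 203, 108 and 159 against 35.2, 15.2 and 0. Apod, Sfrp4, Mgp, Igf2, Serpine2, Tnc, Adamts1 and Smad7 were the next genes in this order. Dmp1 was at 3014, 1415 and 3376 against 653, 476 and 531, but it is a gene of the rule, so this only describes the choice.

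The 6 genes that were 2-fold lower in the high cells of every library were BC055402, Entpd3, Mepe, Mamdc2, Ppef1 and Sybu. Entpd3, an enzyme that breaks down extracellular nucleotides, was at 66.4, 131 and 13.3 CPM in the high cells, against 448, 336 and 177 in the cells without. Sgms2, a sphingomyelin synthase mutated in a form of skeletal fragility, was at 707, 609 and 484 against 1475, 1204 and 1096. Alpl was lower in every library, by less than 2-fold in libraries 2 and 3, at 574, 928 and 478 against 1229, 1425 and 778. Ibsp, bone sialoprotein, was at 6681, 9703 and 5492 against 14892, 13773 and 16339.8, but it too is a gene of the rule, and a cell low in Ibsp could be chosen only through Dmp1 or Phex. Col2a1 was nearly equal in library 3, at 3701 against 3705, and at 3346 and 2389 against 4058 and 3689 in libraries 1 and 2.

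**Figure D4:**
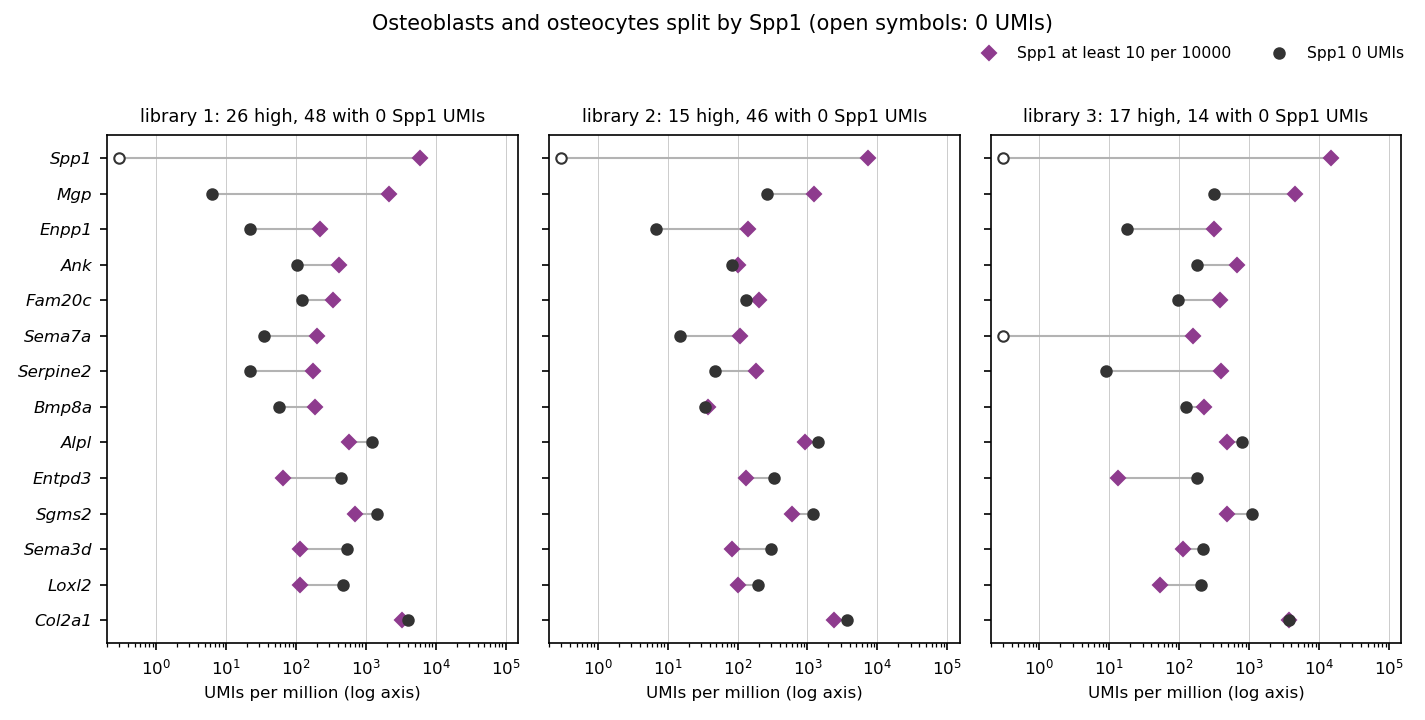
Levels in CPM (log axis) in osteoblasts and osteocytes with at least 10 Spp1 UMIs per 10000 (diamonds) and with 0 Spp1 UMIs (circles, open at 0 UMIs), by library. Enpp1 and Sema7a are higher and Entpd3 and Alpl lower in the Spp1-high cells of all 3 libraries.

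Over single cells of a library, the Spearman rho of Spp1 with Enpp1 was 0.61, 0.44 and 0.64 over 85, 75 and 37 cells. These values describe cells of 1 library each, which share depth and free RNA, and no test was made over them.

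The cells were also divided by Dmp1, an acidic matrix protein of osteocytes. Dmp1 is a gene of the rule, and a cell without it could be chosen only through Ibsp or Phex, so the values of this division are a description of the choice. Cells with at least 20 Dmp1 UMIs per 10000 numbered 23, 8 and 8, those without a Dmp1 UMI 30, 17 and 9, and 22 cells were within 25% of the limit. The high cells had a median of 6192, 8580 and 9233 UMIs in libraries 1, 2 and 3, against 4510.5, 9431 and 5080 in those without Dmp1. The part of depth in the differences was not tested. Of 2538 genes, 22, Dmp1 included, were 2-fold higher in every library, which is 0.867%, and 7 were lower, which is 0.276%. Thbs4, a thrombospondin, led with 369, 184 and 529 CPM in the high cells, against 12.6, 5.29 and 18.2. Fam20c, the kinase that phosphorylates Dmp1 and osteopontin, was at 387, 303 and 408 against 81.7, 84.6 and 109. Ank was at 511, 156 and 761 against 101, 52.9 and 109, and Bmp8a at 187, 46 and 254 against 44, 15.9 and 54.6. Tnfrsf11b, osteoprotegerin, was at 622, 193 and 452 against 245, 79.3 and 164. Every one of the 24 Fgf23 UMIs found in these sets was in the Dmp1-high cells. The genes lower in the Dmp1-high cells included Entpd3, at 62.2, 91.9 and 11 against 540.4, 465 and 182, and the collagen cross-linking enzyme Lox, at 209, 101 and 44.1 against 697, 507 and 90.9.

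Mgp, matrix Gla protein, an inhibitor of calcification, marked a small set that was uneven between libraries. At least 10 UMIs per 10000 were found in 3, 5 and 10 cells, and none in 78, 60 and 18 cells. The high cells had a median of 6077, 15778 and 5900.5 UMIs, against 5642.5, 12443.5 and 6784.5 in those without Mgp, and the part of depth was not tested. Beside Mgp the high cells carried Mia, Abi3bp, Igf1, Igf2, Igfbp7 and Ptn, and contractile genes: Acta2, smooth muscle actin, was at 260, 629 and 448 CPM against 21.2, 21.4 and 10.7, and Tagln at 57.7, 99.4 and 512 against 8.16, 10.7 and 5.35. A single cell held 12 of 33, 46 of 79 and 22 of 30 Acta2 UMIs of the chosen cells. The list of 9 mural markers, which holds both genes, summed to 808, 1049 and 1279 CPM in the Mgp-high cells, against 409, 290 and 348 in the cells without Mgp, while Rgs5 and Myh11, defining genes of mural cells, had no UMI in the Mgp-high cells. The fibroblast list summed to 3115, 4505 and 3710 against 4230, 4431 and 6665. The part of RNA from mural cells was not tested. Bglap, a gene of the rule, was at 23336, 37729 and 16118 against 41390.3, 69910.1 and 55014. Col11a1 was at 2192, 2871 and 448 against 8370, 6028 and 5414, and Gja1 at 173, 199 and 128 against 648, 718 and 535. Of 4945 genes, 76 were 2-fold higher in every library, 1.54%, and 26 lower, 0.526%. Library 1 rests on 3 cells here, and 352 of its 560 Mgp UMIs were in 1 of them.

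Division genes were seen in some cells. A UMI of Mki67 or Top2a was found in 16, 17 and 15 cells, and these were deeper, with a median of 10288 UMIs against 6955. Ube2c, a gene of mitosis, was at 142, 94.3 and 5.55 CPM in them, against 10, 8.52 and 11.6 in the cells without. A single cell held 16 of the 32 Ube2c UMIs of library 1, and another 23 of the 34 of library 2. The part of depth and of RNA from other cells in these counts was not tested.

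By summed counts the libraries differed at few genes. Library 1 had 107 genes at least 2-fold higher and 99 lower than the others by that ratio, library 2 had 96 and 154, and library 3 had 156 and 257, of 5518. The mean over cells in place of sums gave more genes higher or lower, 446, 424 and 763 in libraries 1, 2 and 3. With TMM scaling library 2 had 141 higher and 111 lower, so the balance of directions there depended on the scaling. Spp1 was among the genes higher in library 3, at 2344 CPM (2231 to 2461) in library 1, 1493 (1422 to 1567) in library 2 and 6317 (6057 to 6585) in library 3, a log2 ratio of 1.76 for library 3. It was seen in 37 of 85, 29 of 75 and 23 of 37 cells, and 1 cell held 541 of the 2225 UMIs of library 3. In the 26, 15 and 17 cells high in Spp1 the level was 6060, 7431 and 14618. Those cells were chosen by Spp1 itself, so these values are a description. Libraries 1 and 2 stood there in the reverse of their order over all chosen cells. Timp3, an inhibitor of matrix proteases, was at 432, 277 and 1144, and Timp1 at 229, 125 and 355, both highest in library 3 and lowest in library 2. The protease Adam12 was at 56.5, 78.5 and 17, lowest in library 3, and Mmp14, the membrane collagenase of osteocytes, was highest in library 1, at 274, 112 and 142. Adamts18, a protease, had 43, 47 and 1 UMIs.

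Some of the genes that set library 3 apart came from a few cells that also met the conditions of another stromal set. Such cells numbered 6, 3 and 5 in libraries 1, 2 and 3, and 10 of the 14 met the fibroblast condition. Col3a1, type III collagen, was at 84.1, 57.8 and 1246 CPM, but 434 of its 439 UMIs in library 3 were in these cells, and without them it was at 27.5, 22.3 and 15.7. Postn had 128 of 131 UMIs there, Aspn 62 of 62 and Col6a3 48 of 53. Spp1 without them was at 2347, 1432 and 6933, and Mgp at 17.8, 270.2 and 2256. The difference of Mgp between libraries 2 and 3 thus stayed without those cells, while in library 1 nearly all Mgp was in them.

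Genes of response to stress and signals were set side by side in the same way. Immediate early genes, which cells switch on within minutes of a stimulus and also during dissociation, had medians of 0.09, −0.78 and 0.64 in libraries 1, 2 and 3, with 20 genes of 24 in the table passing the minimum. In library 2, 6 were 2-fold lower, Jun, Egr1, Egr3, Ier2, Ier3 and Klf4, beside 2.79% of all genes. Of these, Egr1, Ier2 and Klf4 fell below 2-fold with TMM scaling, at −0.98, −0.95 and −0.94, as they did with median-of-ratios scaling and without the top cell of each library. In library 3, 3 were higher, Jun, Egr3 and Ier3, beside 2.83%. Jun was at 515 CPM (462 to 571), 284 (254 to 317) and 988 (887 to 1097) and Fos at 987, 738 and 1587. Atf3, also an early gene, was at 120.3, 64.1 and 96.5, within 2-fold. Heat shock genes had medians of −0.10, −0.42 and 0.52, with 2 of 17 higher in library 3, Hspa1a and Hspb1, beside 2.83% of all genes. Hspa8, the constitutive chaperone, was at 684, 582 and 1116.

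Interferon-induced genes had a median of 1.30 in library 3, beside −0.34 in library 1 and −0.98 in library 2. It rests on 8 of 30 genes, since the others had under 50 UMIs. In library 3, 6 were 2-fold higher, among them Isg15, Gbp7, Igtp, Bst2 and Irf1, beside 2.83% of all genes. The minimum could be met through library 3 itself, which gave 31 of 52 UMIs of Igtp, 41 of 70 of Gbp7 and 41 of 75 of Isg15. The count and the median are therefore partly set by the minimum and are only a description. Irf1 fell below 2-fold in 3 alternatives, the lowest value being 0.72 without the top cell of each library. Gbp7, a guanylate-binding GTPase, was at 18.8 (10 to 32.2), 14.4 (8.26 to 23.4) and 116 (83.5 to 158) CPM and was seen in 7, 9 and 16 cells. Igtp, an immunity-related GTPase, was at 13, 10.8 and 88, and 18 of its 31 library 3 UMIs were in 1 cell. Bst2, tetherin, was at 78.3, 59.6 and 196 in 27, 31 and 22 cells. Ifi27l2a was at 103, 56.9 and 539. Gbp7, Isg15, Igtp, Bst2 and Ifi27l2a were also higher in the other kept cells of library 3, where Gbp7 was at 118 and Isg15 at 223, against 41.9 and 39.6 in library 1 and 42.5 and 78.8 in library 2. The part of free RNA from those cells was not tested.

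The interferon list was also read in the other stromal sets. In the adipogenic stroma, which supports blood formation, its medians were −0.17, −2.07 and 2.41 over 22 genes, in fibroblasts 0.13, −0.78 and 0.84 over 23, and in fibrocytes 0.45, −0.15 and −0.13 over 27. Immediate early genes were at −0.13 in library 2 fibroblasts and 0.28 in library 3 fibroblasts. In libraries 2 and 3 they were at −0.49 and 0.09 in the adipogenic stroma and at 0.18 and 0.15 in fibrocytes. Heat shock genes in library 3 were at 0.28 in fibroblasts, 0.57 in the adipogenic stroma and 1.06 in fibrocytes. Clock and glucocorticoid genes in the bone cells had medians of 0.11, −0.50 and 0.61, with 4 of 13 higher in library 3, Dbp, Nr1d1, Errfi1 and Tsc22d3, beside 2.83% of all genes. Tsc22d3 fell below 2-fold in 5 alternatives, the lowest value being 0.55, Errfi1 in 2, at 0.98 without the top cell of each library, and Nr1d1 in 1, at 0.97. Dbp, an output gene of the circadian clock, was at 14.5 (6.95 to 26.7), 52.4 (39.8 to 67.7) and 105 (74 to 145). With TMM scaling the median of library 3 for clock and glucocorticoid genes was 0.55. In libraries 2 and 3 this list was at −0.30 and 0.15 in fibroblasts, −0.60 and 0.04 in the adipogenic stroma and −0.02 and −0.07 in fibrocytes.

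Endoplasmic reticulum stress genes had medians of 0.19, −0.06 and −0.19, and inflammatory genes 0.23, −0.87 and 0.46 over 9 genes. Of these 9, 1 was called, Nfkbia, lower in library 2, beside 2.79% of all genes. The p53 list had −0.56 in library 2 and 0.39 in library 3, where Gadd45b, a stress gene, was at 113, 57.8 and 253. Hypoxia and glycolysis genes had medians of 0.03, −0.10 and 0.07, with 1 of 9, Eno1, lower in library 3, beside 4.66% of all genes. Mt1, a metallothionein, was at 599, 1133 and 1374, lowest in library 1.

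**Figure D5:**
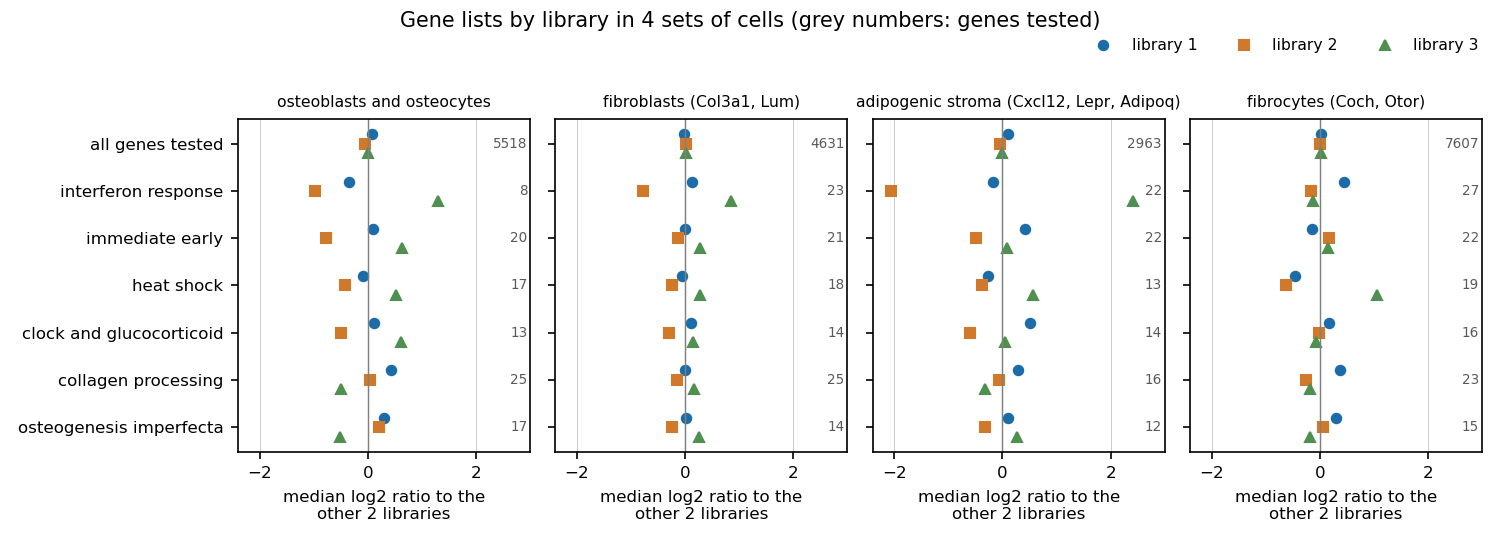
Median log2 ratio of each library against the 2 others for 6 gene lists and for all genes tested, in 4 sets of cells, with the number of genes tested in grey. Interferon genes are at −0.34, −0.98 and 1.30 in the bone cells, and collagen-processing genes at 0.42, 0.04 and −0.49.

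Among the genes that led each library, several rested on single cells or on RNA of other cells. In library 1, Prss34, a protease of basophils, had 53 of 54 UMIs in 1 cell, and Mbp, a myelin gene, 37 of 44. Lars2 was at 593, 103 and 397 and followed the order of Gm42418. In library 2, Ptgds had 511 of 584 UMIs in 1 cell, and the highest cell held 1456 of 2423 UMIs of Hbb-bs and 692 of 1080 of Hbb-bt. Cxcl12, the factor that holds blood stem cells in their niche, had 154 of 171 UMIs of library 2 in 1 cell and was at 34.8, 154 and 25.6, against 20764, 21024 and 18907 in the adipogenic stroma.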

How the data were processed

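Droplet libraries were made from cochlear cells of 3 groups of 6 mice. The deposited values are whole UMI counts per gene and barcode, made with Cell Ranger 7.1.0 per the file headers on build GRCm39 per the submitters' processing notes, in 1 table of 32285 genes and 39092 barcodes. The suffix of a barcode marks its library and matches no label, so libraries were set side by side with no test. Kept barcodes had at least 500 UMIs, 200 genes and at most 20% mitochondrial UMIs. Counts of the chosen cells were summed per library and scaled to CPM. Fibroblasts (264 cells) had at least 5 Col3a1 UMIs per 10000 and 2 Lum UMIs, adipogenic stroma (140 cells) at least 20 Cxcl12 UMIs per 10000 and 2 of Lepr and Adipoq, and fibrocytes (531 cells) at least 20 Coch and Otor UMIs per 10000 with both genes present. All lacked Ptprc. A library ratio is the log2 of a library's CPM over the geometric mean of the 2 others, with 0 set to 3 counts, for genes with at least 50 UMIs summed over the chosen cells, and a gene was called at 2-fold. A gene could pass this minimum through 1 library in which it was high. Intervals are exact Poisson for sums and exact Clopper-Pearson for shares, at 95%. Doublets were called with scrublet in scanpy 1.11.5 at a rate of 6%, which marked 5.63%, 4.69% and 4.73% of kept cells in libraries 1, 2 and 3 and 4 chosen cells, which stayed in. Other tools were Biopython 1.88, matplotlib 3.10.9, pandas 2.3.3, scipy 1.17.1 and numpy 2.4.6 in Python 3.11.15 and, for TMM scaling as an alternative, edgeR 4.0.16 in R 4.3.3. The ratio step was tested on simulated counts. The cells and gene lists were chosen with earlier results of these data known. Genes were named by a rule: the most abundant and most different members of each list, the 20 genes that most exceeded all other kept cells, and the genes that most set a library apart. The genes of the divisions by Spp1, Dmp1, Mgp and Col2a1 fall outside it and were chosen after their values were seen.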

Additional observations from a re-analysis of the deposited data

How the results depend on the processing

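The numbers of genes at least 2-fold higher or lower, 206 in library 1, 250 in library 2 and 413 in library 3, moved by over 1.5 times under 5 settings. With the mean over cells in place of sums they were 446, 424 and 763. With cells thinned to 1000 UMIs they were 28, 34 and 46 of 443 genes, and among cells without a Dmp1 or Phex UMI they were 62, 47 and 28 of 113, where fewer genes could be tested. With a minimum of 20 UMIs they were 746, 740 and 1163, and with none 2683, 3594 and 5102, where genes of few UMIs entered. The share of chosen cells kept within its interval in all 27 combinations of a library and an alternative.

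Of the ratios of single named genes, 1780 kept direction and side of the 2-fold limit, 78 fell below it and 8 reversed. Without the top cell of each library Prss34 was at −1.14 in library 1, Cxcl12 at −0.15 in library 2 and Fst at −0.16 in library 3. Htra1 in library 3 was at −0.23 without cells that met another set's condition and at −0.58 among cells with at least 2 Dmp1 and Phex UMIs. In the same cells Col3a1 was at 1.08 in library 2 and −2.92 in library 3. Aspn in library 2 was at 0.0078 among cells without Dmp1 and Phex. Where a gene fell under 50 UMIs in an alternative no ratio was given. Where no construction is named, the cause was not tested. Of the list medians, 1206 kept their side of a 1.5-fold limit, 29 passed it and 10 fell below it. Clock and glucocorticoid genes in library 3 fell below it in 6 alternatives, at 0.54 to 0.58. Immediate early genes were at 0.58 in library 3 with TMM scaling and −0.54 in library 2 with the mean over cells, and the Wnt list was at 0.24 in library 3 among cells with at least 2 Dmp1 and Phex UMIs. No paired analysis was possible because the libraries carry no group or replicate number. One pooled library a group and 37 cells in library 3 limit every value.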
